A study of Mus musculus with 34 samples.

Results

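The genes described here are 9 genes that mark microglia, the resident macrophages of the brain. They are the protease gene Ctss, the growth factor receptor gene Csf1r, the complement genes C1qa, C1qb and C1qc, the chemokine receptor gene Cx3cr1, the purine receptor gene P2ry12, the lipid receptor gene Trem2 and the adaptor gene Tyrobp. They were taken by symbol from the deposited tables. The hippocampus tables listed 9 of 9 among 11531 genes, the table of hippocampal primary culture 1 of 9 among 10379, and the table of embryonic stem cells 0 of 9 among 11029. The study sequenced ribosome footprints (RPF, the mRNA fragments covered by ribosomes) and RNA from hippocampi of C57BL/6N mice. Controls had no stimulus. The other mice underwent contextual fear conditioning, and their hippocampi were taken at 5 min, 10 min, 30 min or 4 h. The mice were caged singly and had 3 min of handling on each of 4 days. Conditioning was 148 s in a chamber followed by a foot shock of 2 s. The labels number 3 replicates in each of these 5 groups, for RPF and again for RNA. A culture from the same strain and the embryonic stem cell line A3-1, which had received an siRNA against luciferase, gave 1 library of each kind. Age, sex and whether replicates were separate mice were not given in the sources used here. The p-values thus measure only how far these samples spread, and part of that spread may be technical.

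Microglia depend on the receptor encoded by Csf1r for survival, and through the receptors encoded by Cx3cr1 and P2ry12 they sense a chemokine made by neurons and nucleotides released from cells. The 3 C1q chains assemble into the recognition molecule that starts the classical complement pathway, which in the brain is known for tagging synapses for removal by microglia. The lipid receptor of Trem2 has no signalling domain of its own and works through the adaptor of Tyrobp, and Ctss encodes cathepsin S, a lysosomal protease that stays active at neutral pH.

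All values are the deposited signal, which is a whole number of reads divided by 1 number per library and holds no gene length. A signal can therefore be compared between libraries for 1 gene, and not between genes. The 15 tissue RPF libraries held 14240563 to 30480009 reads on listed genes and the 15 RNA libraries 16814796 to 25515210. The members were well covered: the fewest reads were 314 for Tyrobp in RPF and 232 for Trem2 in RNA, a counting error of 5.64% and 6.57%. Of the other marker lists, 17 of 18 further microglial genes, 12 of 12 neuronal and 13 of 13 astrocyte genes were listed in the tissue tables. In bulk tissue, fewer microglia and less RNA per microglial cell cannot be told apart.

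Footprints on Csf1r, Cx3cr1, P2ry12 and Ctss differed mainly by replicate number. Csf1r footprint signal was 16.2, 10.2 and 12.6 in control replicates 1, 2 and 3. At 5 min it was 17.97, 11.3 and 14.02, and at 4 h 16.7, 12.8 and 13.1. In all 5 groups replicate 1 was highest, and the 5 libraries numbered 1 lay between 16.2 and 17.97, above the 10 others, which reached 14.02. The mean was 17.1 ± 0.665 (SD, n = 5) in number 1, 11.8 ± 1.22 in number 2 and 12.9 ± 0.788 in number 3. A moderated F-test of the replicate number in limma gave an adjusted p = 5.67e-07, over a background of 73.1% of 7898 genes called by the same test. Csf1r RNA followed the same order, with number means of 7.18 ± 0.155, 4.95 ± 0.361 and 5.87 ± 0.208 (SD, n = 5; limma adjusted p = 4.48e-10).

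**Figure D1:**
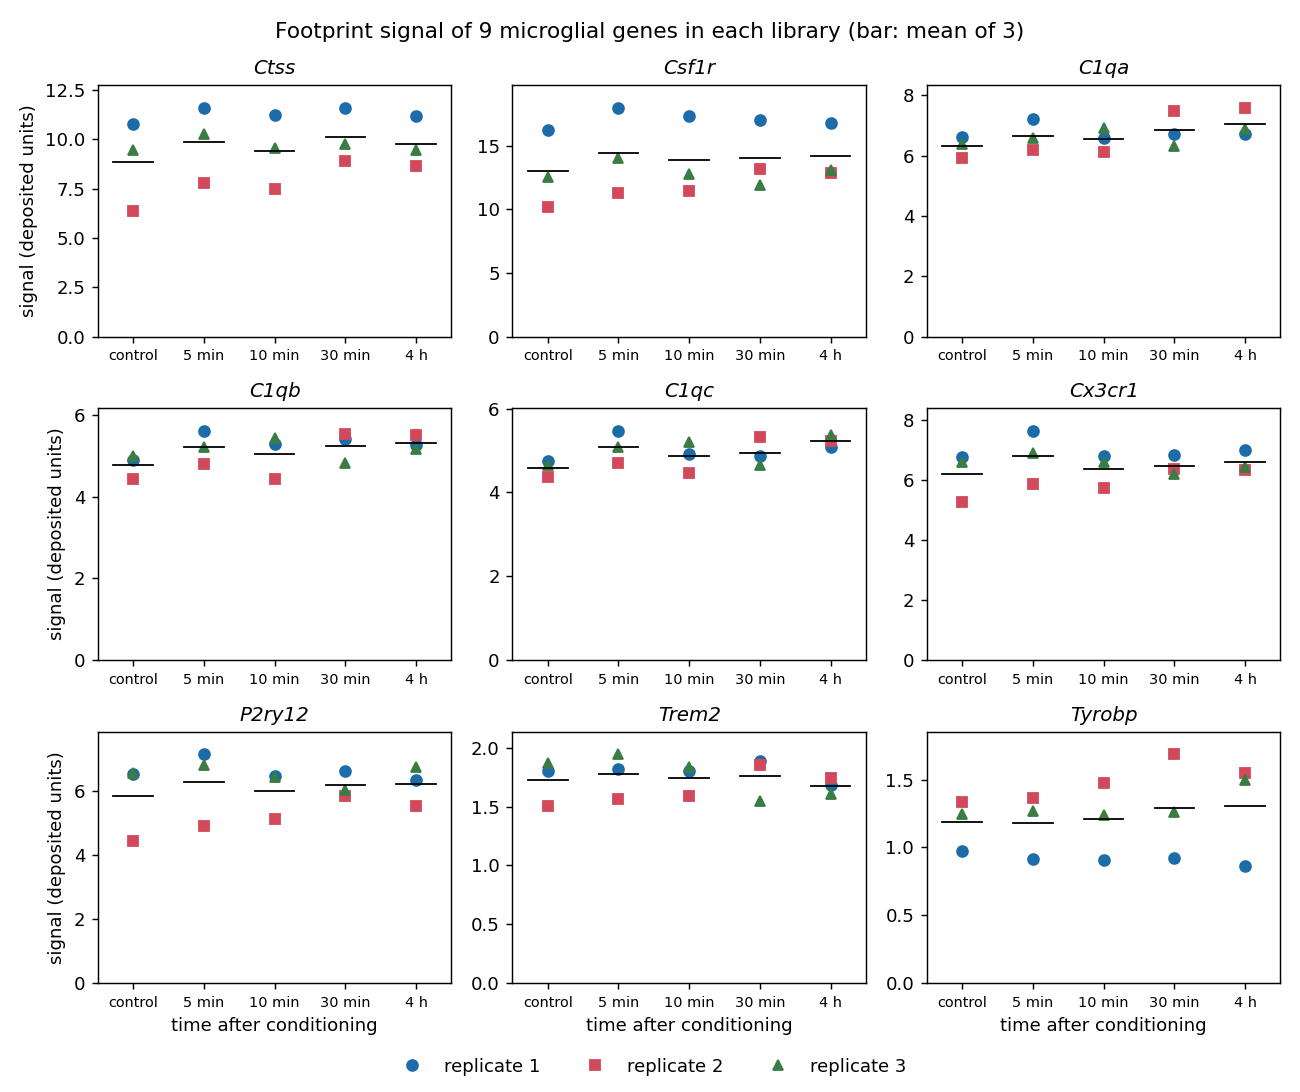
Footprint signal (deposited units, y axis from 0) of each of the 9 genes in control hippocampus and at 4 times after conditioning; symbols are the replicates and bars the mean of 3. Replicate 1 lies highest for Csf1r and Ctss and lowest for Tyrobp in all 5 groups.

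Ctss behaved like Csf1r. Its footprint signal was 10.8, 6.36 and 9.46 in control replicates 1 to 3, 11.6, 7.77 and 10.3 at 5 min, 11.2, 7.46 and 9.58 at 10 min, 11.6, 8.91 and 9.78 at 30 min, and 11.2, 8.65 and 9.47 at 4 h. In every group the order was 1, 3, 2, and the libraries of the 3 numbers did not overlap. For Ctss as for Csf1r, and for P2ry12 and Tyrobp below, the share of all genes separated by number in this way was not counted. The number means were 11.3, 7.83 and 9.71 (limma adjusted p = 7.54e-07). In RNA they were 6.20, 4.08 and 4.71 (limma adjusted p = 3.94e-12), a fold of 1.52 between the highest and the lowest.

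Cx3cr1 and P2ry12 also differed by number, less widely. Cx3cr1 footprints averaged 6.998, 5.91 and 6.55 in numbers 1, 2 and 3 (limma adjusted p = 0.000765), and its RNA 3.83, 2.93 and 3.16 (adjusted p = 4.25e-07). P2ry12 footprints averaged 6.63, 5.17 and 6.52 (limma adjusted p = 4.42e-05), so that number 2 was low and numbers 1 and 3 were close to each other. The 5 libraries of number 2 ran from 4.43 to 5.84, below the 10 others, of which the lowest was 6.05. P2ry12 RNA averaged 4.68, 4.01 and 4.34 (limma adjusted p = 0.000571). P2ry12 lies inside the gene Med12l in the reference annotation, Ctss overlaps the pseudogene Hmgb1-ps5, and Csf1r and Cx3cr1 overlap non-coding genes. The way reads in such overlaps were counted, by strand or not, was not given in the sources used here.

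Tyrobp footprints ran the other way. They were 0.976, 0.914, 0.907, 0.926 and 0.864 in the replicates numbered 1 of control, 5 min, 10 min, 30 min and 4 h. The replicates numbered 2 held 1.33, 1.37, 1.48, 1.69 and 1.55, and those numbered 3 held 1.25, 1.27, 1.24, 1.26 and 1.5. Number 1 was thus lowest in each group, without overlap with the other numbers (limma adjusted p = 9.01e-07). Tyrobp RNA showed no such order: the means were 0.973, 1.05 and 0.984, and the F-test did not pass (limma adjusted p = 0.388). Its partner Trem2 had footprint means of 1.799, 1.65 and 1.76, which did not pass either (limma adjusted p = 0.257). The ratio of Trem2 to Tyrobp footprint signal within a library was therefore 1.85 to 2.04 in number 1, 1.08 to 1.14 in number 2 and 1.07 to 1.54 in number 3. In RNA the same ratio overlapped between the numbers, at 0.787 to 0.962, 0.606 to 0.990 and 0.817 to 1.07.

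The C1q genes did not share the footprint pattern of Csf1r and Ctss. C1qa footprints averaged 6.77, 6.66 and 6.62 in numbers 1, 2 and 3 (limma adjusted p = 0.832), C1qb 5.31, 4.95 and 5.13 (0.247) and C1qc 5.02, 4.82 and 4.99 (0.494). In RNA all 3 passed the test, in different orders. C1qa RNA was highest in number 1, at 3.18, 2.70 and 2.98 (limma adjusted p = 0.00183). C1qb and C1qc RNA were highest in number 3, at 2.10, 2.01 and 2.38 (limma adjusted p = 0.00102) and at 2.30, 2.36 and 2.68 (0.000645). The ratio of C1qa to Csf1r footprints ran from 0.379 to 0.409 in number 1, 0.537 to 0.592 in number 2 and 0.469 to 0.543 in number 3, so that number 1 stood apart. Altogether, 5 of 9 members (55.6%) differed by number in RPF, below the background of 73.1%, and 7 of 8 tested (87.5%) in RNA, where the background was 65.5% of 8061 genes.

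**Figure D2:**
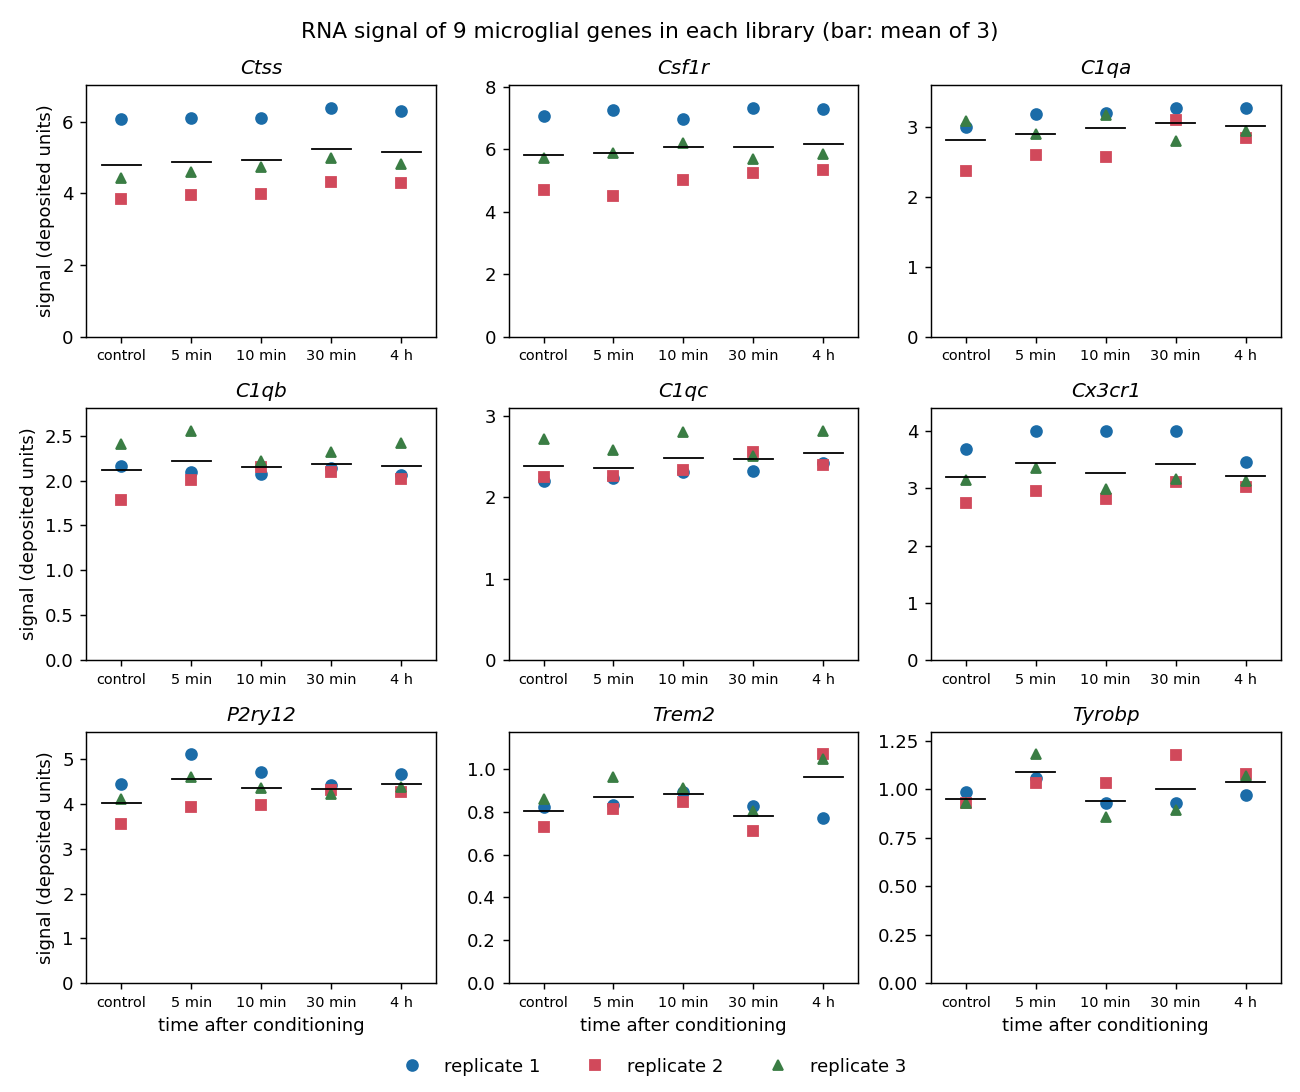
RNA signal (deposited units, y axis from 0) of the same 9 genes by group and replicate, with bars at the mean of 3. Csf1r and Ctss are highest in replicate 1 of every group, while C1qb and C1qc are highest on average in replicate 3.

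Sums of markers of other cells varied by replicate number for some lists, and these sums were not tested. The summed footprint signal of 11 choroid plexus genes was 1319 to 2098 in number 1, 926 to 1906 in number 2 and 68.9 to 496 in number 3. Of 14 genes of border macrophages and blood monocytes, 12 were not listed, and the other 2, Mrc1 and Stab1, summed to 3.25 to 3.91 in number 1, 1.77 to 2.41 in number 2 and 1.85 to 2.38 in number 3. The summed signal of 13 endothelial and pericyte genes was 42.5 to 47.1, 31.8 to 40.7 and 33.2 to 37.5, and that of the 9 members 59.3 to 65.4, 43.8 to 56.2 and 52.5 to 58.1. Over numbers 1, 2 and 3, the footprint sums of 17 further microglial genes averaged 265, 275 and 287, although 10 of the 14 tested were highest in number 1. Those of 12 neuronal genes averaged 894, 880 and 930, of 14 oligodendrocyte genes 431, 393 and 439, and of 13 astrocyte genes 576, 470 and 501. The libraries of the numbers overlapped for the further microglial genes (260 to 277, 241 to 303 and 262 to 301). They also did for neuronal (878 to 903, 845 to 916 and 895 to 959) and oligodendrocyte genes (413 to 468, 337 to 437 and 402 to 466). For astrocyte genes number 1 lay apart (557 to 602, against 410 to 513 and 464 to 529). The signal holds no gene length, so genes with a high signal weigh most in each sum. The part of the other cells in the members' values was not tested.

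Within a library, the footprints on the 3 C1q chains kept nearly fixed ratios. C1qa to C1qb was 1.30 ± 0.0468 (SD, n = 15), with a range of 1.24 to 1.38, C1qa to C1qc 1.35 ± 0.0456 (1.28 to 1.45) and C1qb to C1qc 1.04 ± 0.0356 (0.964 to 1.12). Their coefficients of variation (SD over mean) were 3.59%, 3.37% and 3.42%. The counting error of a single C1q gene was up to 2.48% for C1qa, 2.83% for C1qb and 2.91% for C1qc. A ratio carries the counting error of both of its genes, so it is larger than that of either gene. In RNA the same ratios were 1.37 ± 0.145, 1.21 ± 0.134 and 0.887 ± 0.0613 (SD, n = 15), with coefficients of 10.6%, 11.1% and 6.91%. RNA counts were lower, with counting errors of up to 3.58%, 4.20% and 3.85%. The RNA ratio of C1qa to C1qc separated number 1 (1.35 to 1.43) from numbers 2 (1.05 to 1.21) and 3 (1.04 to 1.14), which the footprint ratio did not. Among other pairs of members, footprint ratios varied by 7.64% for Ctss to Csf1r, 6.50% for Cx3cr1 to P2ry12, 15.4% for C1qa to Csf1r and 26.1% for Trem2 to Tyrobp. In RNA these were 4.92%, 7.81%, 9.91% and 13.1%, so that Ctss to Csf1r varied less than any C1q pair. Pairs of genes outside the members were not compared. The signal holds no gene length, so the C1q ratios describe variation between libraries, not the amounts of the chains.

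**Figure D3:**
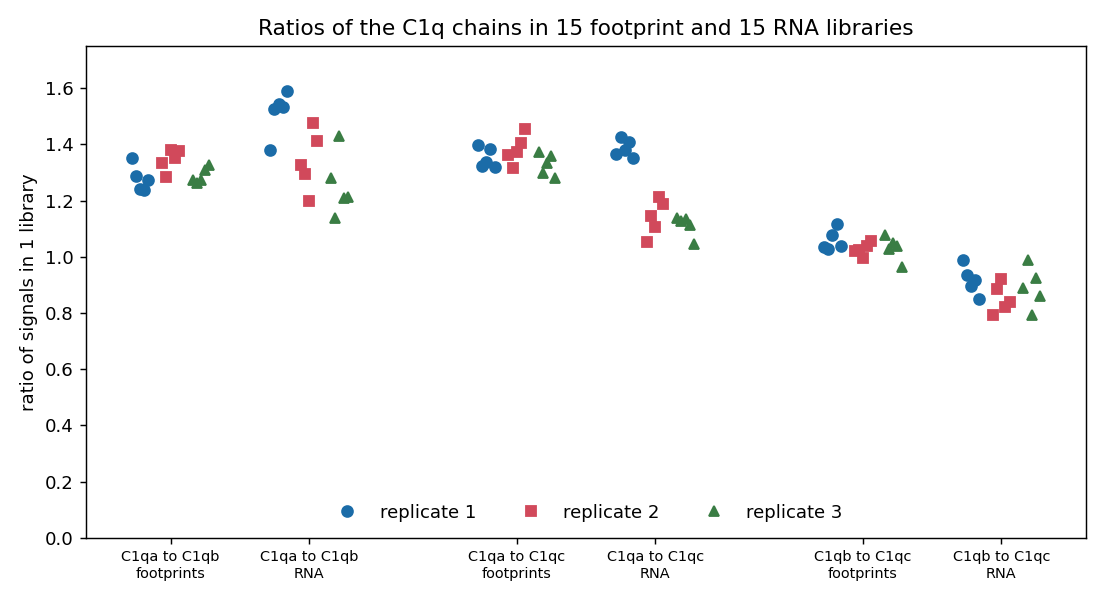
Ratio of the signals of 2 C1q genes within each of 15 RPF and 15 RNA libraries (y axis from 0), with a column of points per replicate number. Footprint ratios vary by 3.37 to 3.59% and RNA ratios by 6.91 to 11.1%, and number 1 stands apart for C1qa to C1qc in RNA.

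C1qa, C1qb and C1qc lie on chromosome 4. The stretches before the start of C1qb, C1qc and P2ry12 are shown because each holds the motif AGGAAGT, described below, wholly before the start. A link between the stretches and the members' values was not tested. RefSeq promoter windows of 300 bases (build GRCm38.p6, 250 before and 50 after the gene's start, another build than the mm9 used for the data) were at hand for 6 of the 9 members: Ctss, C1qb, C1qc, Cx3cr1, P2ry12 and Trem2. They were searched on both strands for the core of the site of PU.1, a transcription factor of the macrophage lineage, in 4 spellings that overlap each other. GAGGAA occurred in 28.3% of all 32851 windows and in those of Ctss, C1qb, C1qc and Trem2. GGAAGT (23.8%) and AGGAAGT (9.35%) occurred in those of Ctss, C1qb, C1qc and P2ry12, and GAGGAAGT (3.20%) in those of Ctss and C1qc. Below, capitals mark AGGAAGT, or ACTTCCT where it lies on the opposite strand. This spelling was chosen after the matches were seen. Each stretch is 91 bases on the gene's own strand, which is the minus strand for all 3.
C1qb, chr4:136886205-136886295, motif starting 53 bases before the gene's start: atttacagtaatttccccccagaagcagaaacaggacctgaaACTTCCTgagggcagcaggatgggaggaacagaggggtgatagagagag
C1qc, chr4:136893061-136893151, motif starting 195 bases before the start: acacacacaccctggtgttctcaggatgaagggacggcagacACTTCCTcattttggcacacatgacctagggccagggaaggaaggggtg
P2ry12, chr3:59262989-59263079, motif starting 52 bases before the start: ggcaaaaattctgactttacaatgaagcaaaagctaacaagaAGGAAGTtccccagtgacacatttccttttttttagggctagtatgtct
The match in Ctss runs across the gene's start and is not shown. A match is a run of letters, not a bound site.

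After conditioning, no member passed the test at any time, in footprints or in RNA. Of the 9 tested in RPF and 8 in RNA, limma called 0 at 5, 10 and 30 min and 4 h. Of all genes, 0% of the 7898 tested in RPF were called at each time, and so were 0% of the 8061 tested in RNA. At an unadjusted p under 0.05, limma gave 1 member in RPF, C1qc at 4 h, and 0 in RNA, against 42 of 7898 genes in RPF at 4 h. With the replicate number as a block, again 0 members were called. The background was then 0% at 5 min, 10 min and 4 h and 0.0506% at 30 min in RPF, and 0.0372%, 0.0248%, 0.0248% and 0.0124% in RNA. A blocked F-test for any time called 0 members, with 0.076% of genes in RPF and 0.062% in RNA. In the blocked test 3, 0, 1 and 3 members in RPF and 1, 0, 1 and 2 in RNA had an unadjusted p under 0.05 at the 4 times. Of all genes, 544, 259, 218 and 477 of 7898 in RPF and 532, 968, 809 and 1317 of 8061 in RNA did so.

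Without the block, the C1q genes came nearest to the threshold in footprints. C1qc footprints were 4.74, 4.36 and 4.66 in control replicates 1 to 3 and 5.09, 5.22 and 5.37 at 4 h. C1qa went from 6.62, 5.93 and 6.39 to 6.71, 7.59 and 6.87, and C1qb from 4.90, 4.45 and 5.02 to 5.28, 5.51 and 5.18. For all 3 genes the 4 h libraries lay above the control libraries without overlap, which held for 1.72% of all 7898 genes at 4 h. At 5, 10 and 30 min it held for 0 members and for 1.77%, 1.29% and 0.823% of the genes. C1qc had a log2 difference of 0.16 (SE 0.07, 95% interval 0.01 to 0.30) on the log2(signal + 1) scale, with an unadjusted p = 0.0375 and an adjusted p = 1.00 in limma. The interval was -0.03 to 0.31 for C1qa and -0.04 to 0.30 for C1qb. In RNA at 4 h, C1qc was 2.42, 2.399 and 2.81 against 2.19, 2.25 and 2.71 in control, C1qa 3.27, 2.85 and 2.94 against 2.99, 2.37 and 3.08, and C1qb 2.06, 2.01 and 2.42 against 2.17, 1.78 and 2.41. The RNA groups overlapped for all 3.

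In the same fit without the block, the smallest unadjusted p in RPF at the other times belonged to C1qc at 5 min (log2 difference 0.12, 95% interval -0.03 to 0.27) and 10 min (0.07, -0.08 to 0.21) and to C1qb at 30 min (0.11, -0.05 to 0.28). In RNA it belonged to Tyrobp at 5 min (0.10, -0.02 to 0.22), P2ry12 at 10 min (0.09, -0.09 to 0.27), C1qa at 30 min (0.09, -0.10 to 0.28) and P2ry12 at 4 h (0.12, -0.06 to 0.29). Tyrobp RNA was 0.985, 0.930 and 0.927 in control and 1.06, 1.03 and 1.18 at 5 min, without overlap, as for 3.01% of all 8061 genes. At 10 min, 30 min and 4 h RNA groups were apart in this way for 0 members and for 5.78%, 4.44% and 5.46% of genes. P2ry12 RNA at 4 h was 4.68, 4.28 and 4.39 against 4.46, 3.55 and 4.11 in control, which overlapped. Every one of these adjusted p was 1.00 in limma. With the block, the smallest p in RPF belonged to Ctss at 5, 10 and 30 min and to C1qc at 4 h (0.16, 0.04 to 0.28). In RNA it then belonged to P2ry12 at 5 min (0.14, 0.04 to 0.24), 10 min (0.09, -0.01 to 0.19) and 4 h (0.12, 0.02 to 0.21) and to Ctss at 30 min (0.11, 0.03 to 0.19). The limma adjusted p of these blocked differences ran from 0.226 to 1.00.

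**Figure D4:**
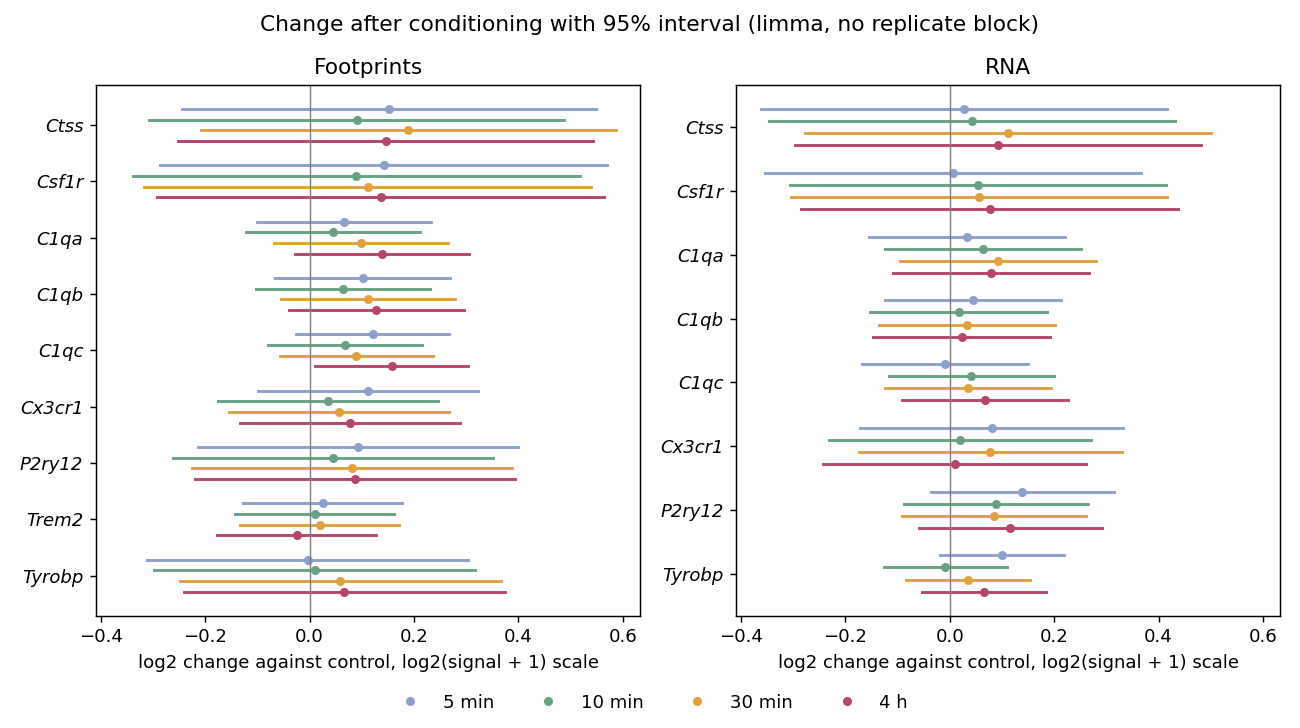
log2 difference of each time from control on the log2(signal + 1) scale (x axis) for each gene, with the 95% interval of limma without the replicate block; RPF left, RNA right. The points lie mostly right of 0 and the intervals span 0, except that of C1qc footprints at 4 h.

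The differences lay mostly above 0, and all times share the same 3 controls. In RPF, 8, 9, 9 and 8 of 9 members were higher than control at 5 min, 10 min, 30 min and 4 h, with a median log2 difference of 0.10, 0.05, 0.09 and 0.13. Over all tested genes the median was -0.01, 0.00, 0.01 and 0.00. In RNA, 7, 7, 8 and 8 of 8 members were higher, with medians of 0.04, 0.04, 0.07 and 0.07 against 0.01, 0.03, 0.03 and 0.03 over all genes. Of all genes, 47.3%, 50.3%, 60.8% and 51.2% were higher in RPF and 60.0%, 71.0%, 71.6% and 66.2% in RNA. Under TMM scaling (trimmed mean of M-values, another way to scale libraries) the RNA counts were 6, 5, 8 and 7 and those in RPF 9, 9, 9 and 8. Control replicate 2 was the lowest of 15 libraries for 7 of 9 members in RPF and for 5 in RNA.

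Most markers of astrocytes and oligodendrocytes lay above control as well, and those of choroid plexus mostly below, with 0 calls. In RPF, 9, 13, 12 and 11 of 13 astrocyte genes were higher than control at 5 min, 10 min, 30 min and 4 h (medians 0.10, 0.07, 0.05 and 0.11), and 12, 12, 11 and 11 of 14 oligodendrocyte genes (0.09, 0.07, 0.06 and 0.10). Of 8 choroid plexus genes, 4 were higher at 5 min and 0 at the later times (0.00, -0.13, -0.38 and -0.56). In RNA the counts were 11, 10, 11 and 10 of 13 for astrocytes, 10, 11, 10 and 9 of 13 for oligodendrocytes and 0, 6, 0 and 0 of 8 for choroid plexus. The part of these cells in the members' differences was not tested.

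Read within replicate numbers, the members' pattern was carried by number 2 at the later times. At 30 min the median ratio of a member's footprints to control was 1.02 in number 1, 1.26 in number 2 and 0.961 in number 3, and 8, 9 and 2 of 9 members were higher. At 4 h the median ratios were 1.03, 1.24 and 1.03, with 6, 9 and 7 members higher. At 5 min they were closer together, at 1.09, 1.08 and 1.04, and 8 of 9 members (not Tyrobp) were higher in 3 of 3 numbers, against 20.7% of all genes. The counts of members higher in 3 of 3 numbers were 3 at 10 min, 1 at 30 min and 5 at 4 h, against 12.6%, 8.26% and 13.7% of all genes. In RNA they were 4, 4, 2 and 4 of 8 members, against 19.7%, 31.9%, 23.6% and 27.5% of genes. Ctss was the member among these at all 4 times, in RPF and in RNA. The times share the same controls, and the share of all genes with that record was not counted. Some ratios of Ctss to control were close to 1, at 1.001 in RPF number 3 at 4 h and 1.005 and 1.007 in RNA number 1 at 5 and 10 min. Its blocked log2 difference in footprints was 0.15 at 5 min (95% interval 0.02 to 0.28, limma adjusted p = 0.668) and 0.19 at 30 min (0.06 to 0.32, adjusted p = 1.00).

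Footprints relative to RNA did not pass the test at any time either. This translational efficiency (TE) was compared as the interaction of time and kind of library over 30 libraries. Of 8 members tested, limma called 0 at each time, with 0% of 7103 genes called, and 0 members had an unadjusted p under 0.05. The block called 0 members too, with 0.0141% of genes at 5 min and 0% at the other times. Without the block, the smallest p belonged to C1qc at 5 min (log2 difference 0.13, 95% interval -0.08 to 0.34) and to C1qb at 10 min (0.05, -0.18 to 0.28), 30 min (0.08, -0.15 to 0.31) and 4 h (0.11, -0.12 to 0.34). All these adjusted p were 1.00 in limma. With the block it belonged to C1qc at 5 min, Ctss at 10 and 30 min and C1qb at 4 h. The members' medians were 0.04, 0.02, 0.04 and 0.06 against -0.01, -0.03, -0.01 and -0.02 over all genes. For Csf1r at 4 h the interval without the block, -0.51 to 0.63, allows a change of TE in either direction. That fit counts differences between replicate numbers as spread. For Csf1r footprints at 4 h the SE was 0.199 in the fit without the block and 0.066 with it.

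Without stimulus, the members carried more footprints for their RNA than most genes. In the 3 control libraries of each kind, log2(signal + 1) relative to the median gene of the library was higher in RPF than in RNA for 8 of 8 tested members, and 7 of 8 passed the limma test. The background was 76.6% of 7103 genes called, 41.8% higher and 34.8% lower. On this scale the receptor gene Csf1r had the widest difference, 1.06 (95% interval 0.70 to 1.41, limma adjusted p = 5.41e-06), at the 92.1 percentile of all genes. The complement genes C1qa and C1qb followed with 0.97 (0.82 to 1.12) and 0.92 (0.76 to 1.09), at percentiles 90.5 and 89.3. Cx3cr1 was at 0.81 (0.62 to 1.00), Ctss at 0.79 (0.43 to 1.14) and C1qc at 0.75 (0.60 to 0.91), at percentiles 86.6, 85.8 and 84.6. The intervals of these 6 overlap, and their differences were not tested. With a pseudocount of 0.25 in place of 1, Csf1r, C1qa and C1qb were nearly level, at 1.15, 1.14 and 1.13.

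P2ry12 and Tyrobp lay lower in this comparison. P2ry12 was at 0.46 (95% interval 0.24 to 0.68, limma adjusted p = 0.000436), the 72.8 percentile. Tyrobp was at 0.19 (-0.07 to 0.45, limma adjusted p = 0.174), the 58.0 percentile, and with the replicate number as a block it passed (adjusted p = 0.000933, over a background of 86.6% with the block). Trem2 had too little RNA signal for the filter, and without it stood at 0.62 (limma adjusted p = 5.36e-09). Its control means were only 1.73 in RPF and 0.805 in RNA. Adding 1 to each signal understates the difference for such low genes, so its place among the members is uncertain. The median was 0.80 over the 8 members and 0.06 over all 7103 genes. As gene length and the counted part of each transcript are not in these values, the differences are relative to other genes and are no ribosome density.

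**Figure D5:**
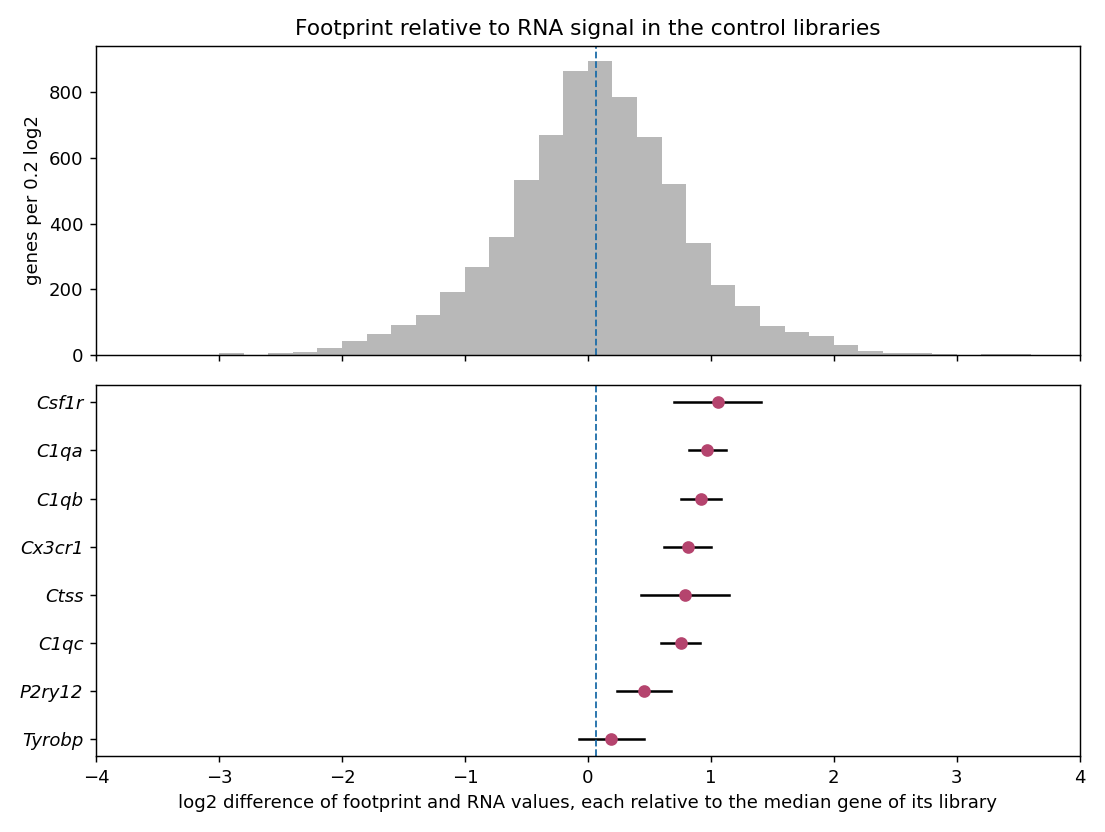
Difference of footprint and RNA values in control hippocampus, each relative to the median gene of its library (log2, x axis), as a histogram of 7103 genes (top) and with 95% intervals for 8 members (bottom); the dashed line is the median of all genes, 0.06. All 8 points lie right of that line, and the interval of Tyrobp spans it.

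The other genes of these pathways gave 0 calls after conditioning as well. Of the further microglial genes, 14 of 18 passed the filter in RPF and 14 in RNA. They were higher than control at 5 min, 10 min, 30 min and 4 h in 12, 13, 11 and 11 of 14 in RPF, with medians of 0.06, 0.06, 0.04 and 0.09. For complement genes and regulators, 9, 9, 9 and 10 of 12 in RPF were higher (medians 0.04, 0.02, 0.03 and 0.04). For microglial ligands and receptors it was 5, 7, 6 and 6 of 7 (0.03, 0.05, 0.06 and 0.07). In controls, 10 of 14 further microglial genes were called higher in RPF relative to RNA and 2 lower. Cx3cl1, the ligand of the receptor of Cx3cr1, stood at 1.96 and Il34, a ligand of the receptor of Csf1r, at 1.08 (limma adjusted p = 1.49e-16 and 3.53e-11). By replicate number, 17 of 19 cathepsin and cystatin genes tested were highest in number 1 in RPF, 14 of them past the test. Of 6 myeloid and leukocyte genes tested, 3 were highest in number 1, each past the test, and 3 in number 3, 2 of them past it. Of all 7898 genes, 3725 were highest in number 1, 2929 of them past the test.

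Across libraries, the members' small deviations resembled those of many genes. After the mean of each replicate number was removed, the genes most like the mean of the 9 members over 15 RPF libraries were Ddost, Abhd12, Hepacam, Pcyox1l and Gpm6b (Pearson's r = 0.984, 0.984, 0.977, 0.977 and 0.976). None of these 5 is in a microglial list used here. In RNA, with 8 members, they were Gna13, Mmd, Lrp11, Gpm6a and Prnp (r = 0.946, 0.939, 0.937, 0.932 and 0.930). Cst3, a cystatin gene high in microglia and astrocytes, ranked at 60 of 7898 genes in RPF (r = 0.947) and at 10 of 8061 in RNA (r = 0.919), while Tmem119, a microglial membrane protein gene, ranked at 2617 and 643. The 15 points share library, scaling and depth. Each member followed the mean of the other members in RPF with r from 0.587 for Tyrobp and 0.646 for Trem2 to 0.950 for Csf1r. In RNA these r were lower for 7 of the members and 0.586 for Tyrobp, from 0.447 for Cx3cr1, 0.474 for C1qb and 0.492 for C1qc to 0.775 for P2ry12.

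In the primary culture 1 of 9 members was listed. Csf1r had a footprint signal of 0.278 (88 reads, exact 95% Poisson interval of the signal 0.223 to 0.342) and an RNA signal of 0.183 (26 reads, 0.120 to 0.268). With 1 library of each kind there is no replicate check, the intervals cover counting error only, and the culture table was scaled apart from the tissue tables. The same table listed 12 of 12 neuronal and 12 of 13 astrocyte genes, 7 of 18 further microglial genes, 2 of 29 myeloid and leukocyte genes and 0 of 14 genes of border macrophages and monocytes. The stem cell table listed 0 of 9 members and 7 of 29 myeloid and leukocyte genes. The value of an unlisted gene was not given in the sources used here. The lowest mean listed was 0.116 in the culture and 0.0224 in the stem cells.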

How the data were processed

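Footprint and RNA libraries of mouse hippocampus, culture and stem cells were analysed from the tables as deposited. The submitters' processing notes name CASAVA 1.8.2, Bowtie 1.1.1 and the mouse build mm9. The unit of the deposited signal is not named in the file headers. Multiplied by 1 number per library, all values came within 0.001 of a whole number, taken as reads. The meaning of that number and the authors' counting were not given in the sources used here. The authors' deposited log2 columns, named in the file headers for each time, were not used.

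limma 3.58.1 (R 4.3.3) was fitted to log2(signal + 1) with all 5 groups in 1 model, without block, for genes with a mean signal of at least 1: 7898 in RPF, 8061 in RNA and 7103 in TE. Trem2 failed this filter in RNA. On this scale changes of low genes are understated. Tests were 2-sided, and p was adjusted by Benjamini and Hochberg's method over all genes, with 0.05 as the threshold. The fit was tested on simulated data that held no difference between replicate numbers, unlike the data here. Every member is named, and for each comparison the member with the smallest p. The members and lists were chosen with earlier results of these data known.

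Samples with the same replicate number deviated together: the correlation of deviations from the group means was at least 0.402 in each of 30 pairs in RPF and 0.268 in RNA. The numbers were therefore taken to pair the samples in the fits with the block. The main fit did not use this pairing, so differences between numbers count as spread in it. What a number stands for is not given in the labels. Alternatives were a pseudocount of 0.25, no filter, a mean of at least 2, TMM scaling, robust estimation, the block, leaving out each replicate, and voom on the recovered reads. Per-residue values of the C1q chains were planned and could not be made without protein lengths.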

Additional observations from a re-analysis of the deposited data

How the results depend on the processing

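The counts of members past the threshold were 0 at every time in RPF, RNA and TE under all alternatives run. They were 4 to 6 of the RPF members and 7 in RNA for the replicate number, and 7 to 9 for controls in RPF against RNA. The replicate block changed the call of 1 member, Tyrobp in controls, and no other call. The alternatives reversed 2 of the differences named: RNA of C1qa at 30 min was -0.00386 (log2) with the replicate block without number 2, and TE of C1qb at 10 min was -0.0183 with the block without number 3 and ranged from -0.0188 to 0.127 when 1 library was left out. C1qb was called for the replicate number in RPF in 1 of 15 cases, without replicate 2 of 30 min. In RNA, Tyrobp has a mean near the filter and was not tested in 7 of the 15 cases. The ratios of the C1q chains moved by less than 1 SD when any library was left out. The voom fits and the unfiltered fit with block were chosen after seeing the data. Count models were not run, since the deposited values are scaled and the reads used in voom were inferred from them. The ratio alternative per gene length had nothing to compare with.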
